A study of Mus musculus with 6 samples.

Results

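Transcripts of 10 genes that link insulin signalling to protein breakdown in muscle were followed in adult mouse cardiomyocytes with and without an intact Uty gene, which lies on the Y chromosome. The genes were taken by name: Insr, Irs1 and Irs2 of the insulin receptor arm, the transcription factors Foxo1, Foxo3 and Foxo4, and the muscle ubiquitin ligases Fbxo32, Trim63, Trim54 and Trim55. All 10 were present among the 54109 named genes of the table, and all 10 passed the low-count filter (mean normalized count of 10 or more), as did 13867 genes in total.

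Cells were released from hearts of adult male mice by retrograde collagenase perfusion (the labels name ventricles), enriched by gravity sedimentation, plated on laminin and lysed after 4 h. UtyGT mice carried the gene-trap allele UtyGt(XS0378)Wtsi in intron 4 of Uty, on a Y chromosome derived from strain 129P2/OlaHsd that had been backcrossed to C57BL/6J. WT mice were the isogenic strain C57BL/6.Y<129P2>, so both groups shared the 129P2/OlaHsd Y chromosome and the C57BL/6J background. The allele is present in every cell of the animal, and beyond adult, no age is stated for either group. There were 3 libraries per group: WT e, f and g and UtyGT d, e and f. Values are normalized counts, that is, reads per gene divided by a factor that scales each library.

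Insulin binds its receptor, which phosphorylates the docking proteins Irs1 and Irs2, and these pass the signal to PI3K and AKT. AKT phosphorylates FOXO factors and keeps them out of the nucleus, whereas without insulin FOXO factors enter it and switch on, among other genes, the ligases Fbxo32 (atrogin-1) and Trim63 (MuRF1), which mark muscle proteins for the proteasome. In heart muscle the FOXO and ligase end of this axis, which AKT holds back, is known as a brake on growth. In liver Irs2 is itself a FOXO target.

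The libraries held 28282597 to 48375624 reads in named genes, and each of the 10 genes had between 589 and 11378 reads in a library. Uty was at 1093, 1017 and 877 normalized counts in WT e, f and g and at 13.9, 10.5 and 8.03 in UtyGT d, e and f, so the labels held for the targeted gene. Neighbouring Y genes differed too. Mean normalized counts of Ddx3y were 2276 in WT and 298 in UtyGT, and those of Eif2s3y were 165 and 707. The separate part of each of these genes was not tested. Genes of the mitochondrial genome took 46.9 to 54.7% of the reads in WT and 39.8 to 44.8% in UtyGT libraries, and UtyGT f stood apart with 28619 genes detected against 21615 to 22917 in the others. The 12 cardiomyocyte markers summed to 1915440 to 2016890 normalized counts in WT and 1969720 to 2189020 in UtyGT. Of these, 0 were higher and 1 (Cox6a2) was lower past the threshold. Summed endothelial markers were at 14016 to 16049 in WT, 21522 and 22452 in UtyGT d and f, and 14555 in UtyGT e, with 4 of 10 higher past the threshold. Summed fibroblast markers ranged from 4138 to 5898 in WT and from 5046 to 6679 in UtyGT (3 of 10 higher), smooth muscle and pericyte markers from 7638 to 8184 and from 6666 to 10316 (4 of 8 higher), and myeloid markers from 281 to 451 and from 410 to 503 (2 of 8 higher). Of 6 atrial markers, 4 were higher and 1 (Bmp10) was lower. Their sum was 337 to 472 in WT, 560 in UtyGT d, and 4819 and 3118 in UtyGT e and f. Skeletal muscle markers summed to 5442 to 6986 in WT and 2049 to 5150 in UtyGT, and adipocyte markers to 2306 to 2544 and 2402 to 4858. Nearly all of each sum was 1 gene: Acta1 (5422 to 6967 in WT and 1999 to 5133 in UtyGT) and Fabp4 (2304 to 2543 in WT, 4300, 2395 and 4839 in UtyGT d, e and f, the order of the endothelial sum). Acta1 was lower past the threshold, and no adipocyte marker passed it. Among the other genes of these lists Lep was at 0 in all WT libraries and Myh4 in all but UtyGT f, and no listed marker was at 0 in every library. For the 3 genes that passed the test, log2 fold changes are therefore also given with UtyGT e alone and with UtyGT d alone. The endothelial sum of UtyGT e was within the WT range, and the atrial sum of UtyGT d was nearest to WT. Beyond this the part of these cell types was not tested.

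Of the 10 genes, Irs2 rose, Foxo1 and Fbxo32 fell, and the other 7 did not pass an adjusted p of 0.05 (limma across all tested genes). The 1 of 10 that rose compares with 4.56% of all tested genes, and the 2 of 10 that fell with 6.12%. The 10 genes were chosen with earlier results of these data known, so these shares are not a test. At an unadjusted p under 0.05 in limma there was 1 gene higher and 5 lower. Such values were common: Irs1, with the largest p of these (limma unadjusted p = 0.0371), ranked 3463 of 13867 tested genes. All UtyGT libraries were above all WT libraries in 2 genes (Irs2 and Trim55), against 14.2% of all tested genes, and below them in 5 (Foxo1, Foxo4, Fbxo32, Insr and Irs1), against 17.7%. The median log2 fold change of the 10 genes was -0.09, and that of all tested genes was 0.0018. As these are bulk samples, fewer cells of a type and less RNA per cell cannot be told apart.

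**Figure D1:**
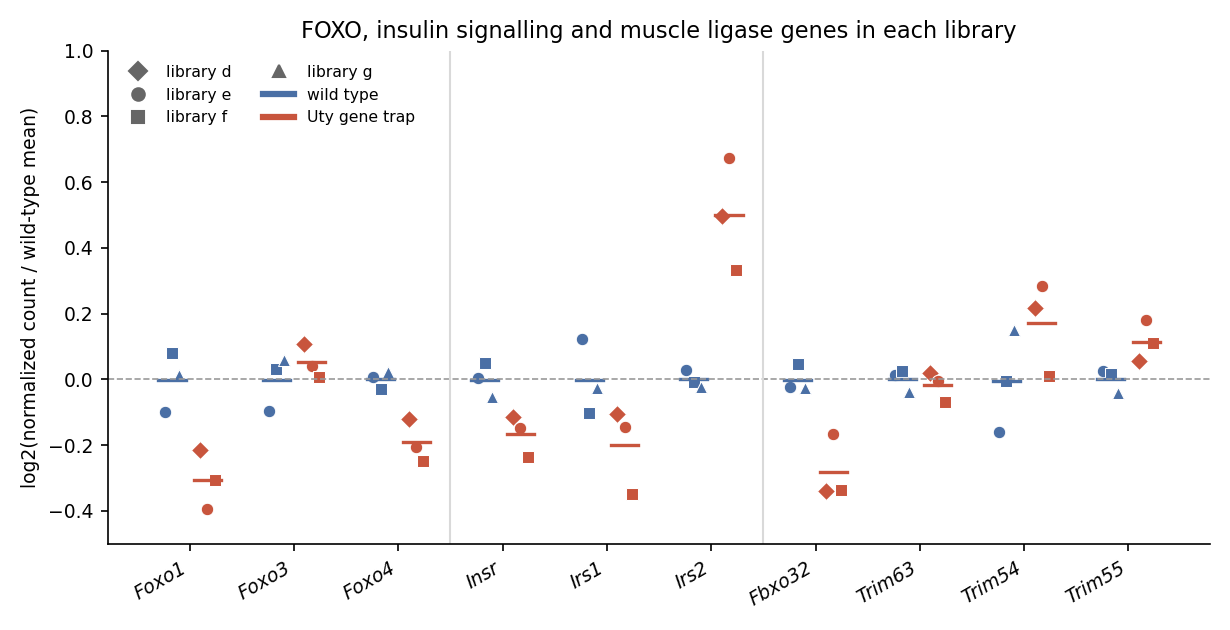
Each point is 1 library: the vertical axis gives the log2 ratio of its normalized count to the WT mean of that gene, blue for WT and red for UtyGT, with the library letter as symbol and horizontal bars for the mean of 3 libraries. Irs2 is the only gene with all UtyGT libraries well above WT, and those of Trim55 lie slightly above. Foxo1, Foxo4, Fbxo32, Insr and Irs1 lie below WT in all UtyGT libraries, and Foxo3, Trim63 and Trim54 overlap.

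Irs2 (chromosome 8, 10984681 to 11008458, minus strand, GRCm38), the docking protein that in liver mediates much of insulin's action, was at 4949, 4823 and 4770 normalized counts in WT e, f and g and at 6837, 7732 and 6106 in UtyGT d, e and f. The WT libraries lay close together, and the lowest UtyGT library exceeded the highest WT library by 1157 normalized counts. The mean rose from 4847 ± 91.6 to 6892 ± 814 (SD, n = 3 each), or 142% of WT, with a log2 fold change of 0.50 ± 0.08 (SE; 95% interval 0.33 to 0.68; limma adjusted p = 0.0033). Irs2 ranked 184 of 13867 genes by p. It stayed past the threshold with each library left out in turn (limma adjusted p 0.000627 to 0.0267), in edgeR (adjusted p = 0.00239) and in DESeq2 (adjusted p = 2.05e-07). Refitted with UtyGT e alone, the log2 fold change was 0.67, and with UtyGT d alone 0.50. A fit that moderated variances without a trend on expression gave an adjusted p of 0.0756 in limma.

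Irs1 (chromosome 1, 82233101 to 82291416, minus strand), the paralogous docking protein that dominates in skeletal muscle, was at 1950, 1669 and 1758 normalized counts in WT and 1666, 1621 and 1408 in UtyGT. The groups did not overlap, yet the nearest WT and UtyGT libraries were only 3.10 normalized counts apart. The mean was 1792 ± 144 in WT and 1565 ± 138 in UtyGT (SD, n = 3 each), a log2 fold change of -0.20 ± 0.08 (95% interval -0.38 to -0.01) that did not pass (limma adjusted p = 0.149). Insr (chromosome 8, 3122061 to 3279617, minus strand), which encodes the receptor itself, was at 8161, 8432 and 7840 normalized counts in WT and 7527, 7350 and 6917 in UtyGT. Every UtyGT library was below every WT library. The means were 8145 ± 296 and 7264 ± 314 (SD, n = 3 each), and the log2 fold change of -0.17 ± 0.06 (95% interval -0.30 to -0.03) did not pass either (limma adjusted p = 0.111).

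Because Irs2 and the other genes of its arm had estimates of opposite sign, their ratios were also taken within each library, where the scaling factor cancels. The ratio of Irs2 to Irs1 normalized counts was 2.54, 2.89 and 2.71 in WT and 4.10, 4.77 and 4.34 in UtyGT, a difference of 0.70 on the log2 scale. The ratio of Irs2 to Insr was 0.606, 0.572 and 0.608 in WT and 0.908, 1.05 and 0.883 in UtyGT, a difference of 0.67. Neither ratio overlapped between groups, which followed from the single genes, since Irs2 was above and Irs1 and Insr below WT in every UtyGT library. All ratios given here were picked after the single genes had been examined and are descriptions without a test.

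The promoter sequences of 4 of these genes are shown to compare the 2 insulin receptor substrates, whose estimates had opposite signs, and Foxo1 with the ligase gene Trim63. RefSeq promoters (GRCm38.p6) of 6 of the 10 genes were used (Foxo1, Foxo3, Irs1, Irs2, Trim54 and Trim63), and those of Foxo4, Fbxo32, Trim55 and Insr were not used here. Each run is the 250 bases before the RefSeq start of the gene, 5′ to 3′ on its own strand. Capitals mark matches on either strand. The motifs searched were the forkhead core, spelled GTAAACA, the E-box, spelled CACGTG, the CCAAT box, the GC-box, spelled GGGCGG, and the TATA box, spelled TATAAA. The motifs were chosen after the sequences had been seen, and no match overlapped another in the runs shown. The locations are chr8:11008930-11009179 (minus strand) for Irs2, chr1:82291440-82291689 (minus) for Irs1, chr3:52268087-52268336 (plus) for Foxo1 and chr4:134314870-134315119 (plus) for Trim63. The RefSeq start of Irs2 lies 471 bases from the start in GENCODE M21.
Irs2: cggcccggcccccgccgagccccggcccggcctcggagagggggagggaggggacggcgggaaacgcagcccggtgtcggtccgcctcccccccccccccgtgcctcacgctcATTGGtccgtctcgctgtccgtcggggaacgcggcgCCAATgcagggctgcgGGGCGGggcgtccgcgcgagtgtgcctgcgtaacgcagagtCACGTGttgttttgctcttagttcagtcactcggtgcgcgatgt
Irs1: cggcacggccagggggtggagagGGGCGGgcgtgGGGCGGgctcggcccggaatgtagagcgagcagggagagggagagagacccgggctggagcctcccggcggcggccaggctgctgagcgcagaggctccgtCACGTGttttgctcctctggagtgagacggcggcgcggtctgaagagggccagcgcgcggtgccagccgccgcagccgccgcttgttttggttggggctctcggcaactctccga
Foxo1: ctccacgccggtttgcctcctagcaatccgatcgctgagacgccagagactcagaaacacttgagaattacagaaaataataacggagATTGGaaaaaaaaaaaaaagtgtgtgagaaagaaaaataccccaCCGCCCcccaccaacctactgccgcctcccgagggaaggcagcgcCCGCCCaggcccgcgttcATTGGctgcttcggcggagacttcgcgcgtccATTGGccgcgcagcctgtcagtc
Trim63: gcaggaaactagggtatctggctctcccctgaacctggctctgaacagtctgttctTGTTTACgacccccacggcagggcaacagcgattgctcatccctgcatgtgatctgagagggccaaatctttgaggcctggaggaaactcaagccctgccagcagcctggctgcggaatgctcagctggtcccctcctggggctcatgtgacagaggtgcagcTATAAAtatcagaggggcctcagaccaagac
Both receptor substrates held the E-box, 44 bases before the start in Irs2 and 115 in Irs1, as did 6.02% of 32851 mouse promoters of that length. Irs2 also held a CCAAT box on each strand (in 33.8% of all promoters), for which Irs1 had no match, and both held the GC-box (32.7% of all promoters). Foxo1 held 3 CCAAT boxes and 2 GC-boxes, all on the reverse strand. Trim63 held the forkhead core on the reverse strand, 194 bases before its start (3.17% of all promoters), and the TATA box 31 bases before it (12.4%). A match describes the letters only, and binding was not measured here.

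The FOXO factors differed among themselves. Foxo1 (chromosome 3, 52268336 to 52353221, plus strand), the member that insulin controls most strongly in liver, was at 1154, 1305 and 1247 normalized counts in WT e, f and g and at 1064, 939 and 999 in UtyGT d, e and f. The highest UtyGT library stayed below the lowest WT library. The mean fell from 1236 ± 76.2 to 1001 ± 62.3 (SD, n = 3 each), or 81.0% of WT, with a log2 fold change of -0.30 ± 0.08 (95% interval -0.47 to -0.14; limma adjusted p = 0.0296). Foxo1 was also called in edgeR (adjusted p = 0.0321) and in DESeq2 (adjusted p = 0.0186). Without WT e, f or g the limma adjusted p was 0.0566, 0.142 and 0.0754 (log2 fold changes of -0.35, -0.26 and -0.30). Without UtyGT d, e or f it was 0.0474, 0.0382 and 0.049. Calls among all tested genes moved too. From 632 higher and 849 lower they fell to 164 and 244 without WT e, 196 and 232 without WT f and 280 and 372 without UtyGT d. They rose to 1000 and 1230 without UtyGT e. The Foxo1 call was also lost with scaling to reads outside the mitochondrial genome (log2 fold change -0.28, limma adjusted p = 0.0545), with quantile normalization (-0.27, 0.0573) and without the variance trend (-0.30, 0.122). With UtyGT e alone the log2 fold change was -0.39, and with UtyGT d alone -0.21.

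Foxo4 (chromosome X, 101254528 to 101260873, plus strand), a smaller member of the same family, was at 807, 786 and 815 normalized counts in WT and 738, 696 and 676 in UtyGT. No UtyGT library reached the WT range. Its log2 fold change of -0.19 ± 0.07 (95% interval -0.35 to -0.03) did not pass (limma adjusted p = 0.116). Foxo3 (chromosome 10, 42181841 to 42276755, minus strand), the factor best known for driving atrophy genes in muscle, was at 4002, 4382 and 4464 normalized counts in WT and 4615, 4403 and 4308 in UtyGT. The groups overlapped. The means were 4283 ± 246 and 4442 ± 157 (SD, n = 3 each), with a log2 fold change of 0.05 ± 0.07 (95% interval -0.09 to 0.20; limma adjusted p = 0.638). Within each library the ratio of Foxo1 to Foxo3 was 0.288, 0.298 and 0.279 in WT and 0.230, 0.213 and 0.232 in UtyGT, a difference of -0.36 on the log2 scale without overlap.

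Among the ligases, Fbxo32 (chromosome 15, 58175879 to 58214932, minus strand), the F-box protein that brings substrates to an SCF ubiquitin ligase, was at 6088, 6389 and 6065 normalized counts in WT e, f and g and at 4879, 5513 and 4896 in UtyGT d, e and f. UtyGT d and f lay close together, and UtyGT e came nearest to WT while remaining below it. The mean fell from 6181 ± 181 to 5096 ± 361 (SD, n = 3 each), or 82.5% of WT, with a log2 fold change of -0.28 ± 0.07 (95% interval -0.43 to -0.13; limma adjusted p = 0.0233). Count-based tests also called it (edgeR adjusted p = 0.0249, DESeq2 adjusted p = 0.00484). It was no longer past the threshold without WT e (log2 fold change -0.29, limma adjusted p = 0.0805), without WT f (-0.26, 0.121), without UtyGT d (-0.25, 0.101) or without the variance trend (-0.28, 0.125), whereas without UtyGT e the adjusted p in limma was 0.00264. With UtyGT e alone, the log2 fold change was -0.16. That library had an endothelial sum within the WT range and the highest atrial sum (4819). With UtyGT d alone, whose atrial sum was nearest to WT (560), it was -0.34. The part of these cell types was not tested.

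The muscle RING-finger ligases did not pass the test in either direction. Trim63 (chromosome 4, 134315120 to 134329629, plus strand), the companion of Fbxo32 in muscle atrophy, was at 2364, 2384 and 2279 normalized counts in WT and 2376, 2334 and 2235 in UtyGT. The groups overlapped throughout, and the log2 fold change was -0.02 ± 0.06 (95% interval -0.15 to 0.12; limma adjusted p = 0.888), with a sign that turned in 4 of 19 alternative fits. Trim54 (MuRF3; chromosome 5, 31116712 to 31137630, plus strand), known to associate with microtubules in muscle, was at 2629, 2925 and 3260 normalized counts in WT and 3418, 3581 and 2960 in UtyGT. WT g lay within the UtyGT range, and the log2 fold change of 0.18 ± 0.09 (95% interval -0.02 to 0.37) did not pass (limma adjusted p = 0.225). Trim55 (MuRF2; chromosome 3, 19644474 to 19692421, plus strand), which binds the giant sarcomere protein titin, was at 1976, 1962 and 1885 normalized counts in WT and 2016, 2198 and 2094 in UtyGT. All UtyGT libraries were slightly above WT, with a log2 fold change of 0.11 ± 0.06 (95% interval -0.03 to 0.25; limma adjusted p = 0.268).

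The pair of atrophy ligases was compared within each library as well. The ratio of Fbxo32 to Trim63 was 2.58, 2.68 and 2.66 in WT and 2.05, 2.36 and 2.19 in UtyGT, a difference of -0.26 on the log2 scale. It was lower in every UtyGT library than in any WT library.

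**Figure D2:**
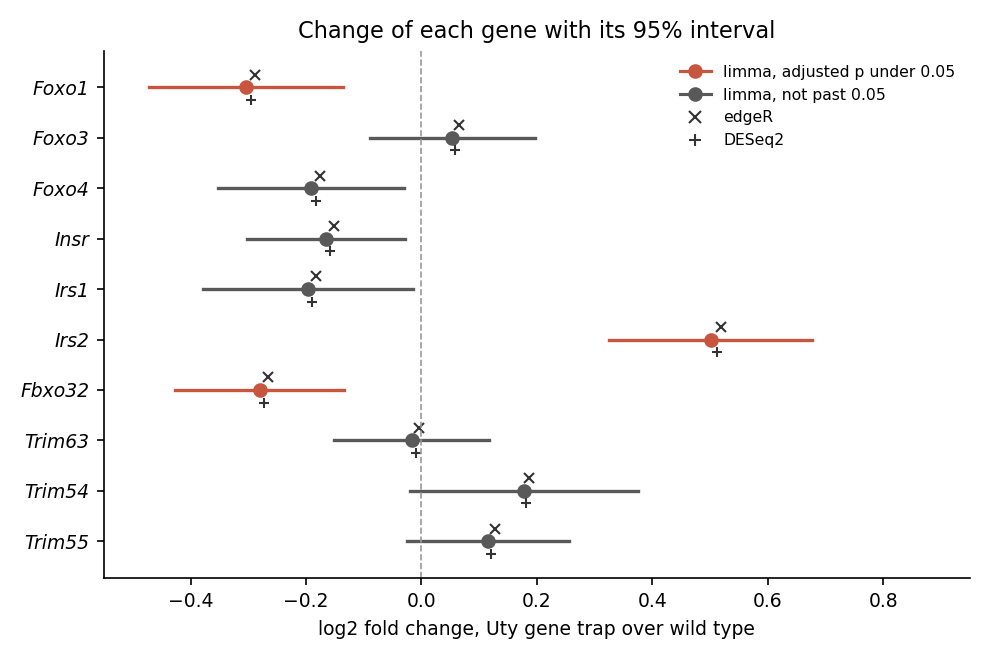
Circles give the log2 fold change of each gene (UtyGT over WT, horizontal axis) from limma with its 95% interval, red where the adjusted p was under 0.05, and crosses and plus signs give edgeR and DESeq2. Irs2 stands at 0.50, Fbxo32 at -0.28 and Foxo1 at -0.30, and the interval of Trim63 spans 0.

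**Figure D3:**
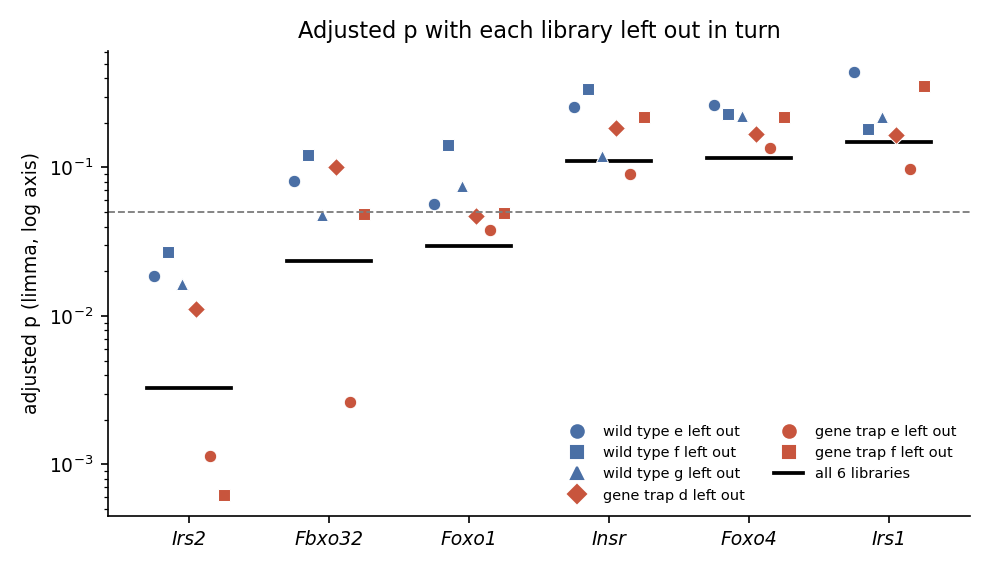
Adjusted p (limma, log axis) of 6 genes with all libraries (black bar) and with each library left out (symbols, blue for a WT and red for a UtyGT library), with a dashed line at 0.05. All points of Irs2 lie below the line, Fbxo32 and Foxo1 have points on both sides, and Insr, Foxo4 and Irs1 lie above it.

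Levels between genes were compared per kb of exon (normalized counts per kb of the union of annotated exons). In WT the order was Trim54 at 2046 ± 220, Fbxo32 at 886 ± 25.9, Trim63 at 824 ± 19.7, Irs2 at 767 ± 14.5, Trim55 at 730 ± 18.5, Insr at 593 ± 21.6, Foxo3 at 566 ± 32.5, Foxo4 at 230 ± 4.33, Irs1 at 196 ± 15.7 and Foxo1 at 143 ± 8.79 (SD, n = 3). Insr and Foxo3 were the neighbours whose means lay within their SDs of each other. Foxo1 was the lowest although Foxo3, its relative, was well above it. In UtyGT, Irs2 reached 1090 ± 129 normalized counts per kb and stood above Trim63 (815 ± 25.4), Trim55 (791 ± 34.3) and Fbxo32 (731 ± 51.8). There, the SDs of Trim63 and Trim55 and those of Trim55 and Fbxo32 overlapped. Trim54 ranked 374 and Foxo1 4428 of 13862 tested genes by this measure in WT. With the longest transcript in place of the union of exons, Trim63 came to 1242, Insr to 871 and Trim55 to 748 normalized counts per kb in WT, so Insr stood above Irs2 and Trim55. In UtyGT, Trim63 came to 1228 by that length, above Irs2 at 1090. The order between Trim54 at the top and the 3 lowest genes thus depends on the gene model.

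**Figure D4:**
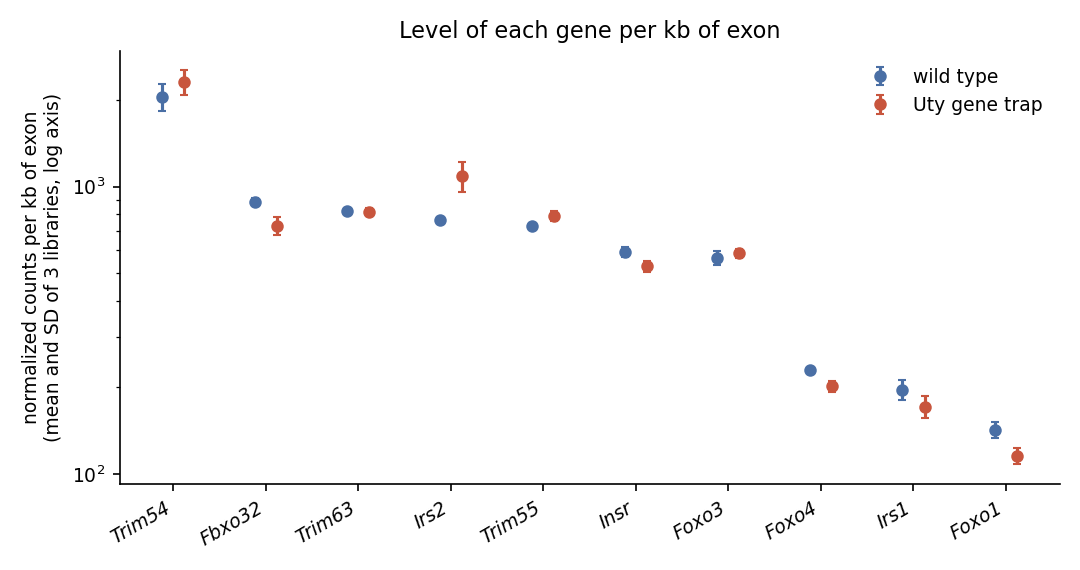
Mean and SD (n = 3 libraries) of normalized counts per kb of exon on a log axis, in the order of the WT means, blue for WT and red for UtyGT. Trim54 is at the top at 2046 in WT, Foxo1 is lowest at 143, and Irs2 moves from 767 to 1090.

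Of the 10 genes, 5 overlap an annotated gene on the opposite strand, and the strand setting of the counting was not stated. The partners were counted at 30.4 normalized counts at most (Gm15469, within Trim54, or 1.16% of Trim54). Gm9747 covers 30.5% of the 50-base windows of Irs1 exons and was at 2.5 normalized counts at most, Gm20402 of Foxo1 at 3.43, Gm15943 of Fbxo32 at 12.6 and 9530052E02Rik of Irs2 at 7.03. No exonic 50-base window was shared between any pair of the 10 genes.

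The other genes of the pathway were taken from 8 lists with 155 genes, of which 150 were tested. Among these, 12 were higher (8%, against 4.56% of all tested genes) and 28 were lower (18.7%, against 6.12%), and their median log2 fold change was -0.09. The lists were written with earlier results of these data known, so these shares are not a test. The counts of pathway genes moved with the libraries used. There were 5 higher and 9 lower without WT e, and 5 and 10 without WT f. Without UtyGT d there were 8 and 14, and without UtyGT e 11 and 39. Upstream, 1 of 18 genes for insulin and IGF receptors, adaptors and inhibitors rose and 2 fell. Igf1r, the receptor for insulin-like growth factor 1, fell by 0.37 on the log2 scale (limma adjusted p = 0.0146), from 1601 ± 70.4 to 1241 ± 112 normalized counts (SD, n = 3). Igfbp3, a binding protein for insulin-like growth factors, rose by 0.69 (limma adjusted p = 0.0445). It was at 213, 280 and 233 normalized counts in WT e, f and g and at 448, 263 and 496 in UtyGT d, e and f. UtyGT e lay within the WT range, as did its endothelial sum, and d and f were higher, as were theirs. In this list no gene passed without WT e or without WT f, and 1 lower gene did without WT g or without UtyGT d. Without UtyGT e there were 2 higher and 2 lower, and without UtyGT f 0 higher and 2 lower.

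In the PI3K and AKT list, 3 of 22 genes rose and 6 fell. Those that fell included both genes of glycogen synthase kinase 3, a kinase that AKT inhibits: Gsk3b by 0.51 (limma adjusted p = 0.00105) and Gsk3a by 0.44 (limma adjusted p = 0.0032) on the log2 scale. Pdpk1, the kinase that activates AKT, fell by 0.23 (limma adjusted p = 0.0397). Akt1 rose by 0.30 (limma adjusted p = 0.0286), and so did the pseudokinase genes Trib1, by 0.54 (limma adjusted p = 0.00188), and Trib2, by 0.45 (limma adjusted p = 0.027). Kinase genes thus stood among both the higher and the lower genes. Without WT e the list had 2 higher and 2 lower, without WT f 1 and 2, and without UtyGT d 2 and 3. In the mTOR list, 0 of 18 rose and 1 fell in limma, edgeR and DESeq2 alike, against 3 higher and 7 lower at an unadjusted p under 0.05 in limma. At least 3463 of all 13867 tested genes were also under that unadjusted level. The 1 that fell in limma was Eif4ebp2, a repressor of translation that mTOR inactivates, by 0.24 (limma adjusted p = 0.0339). It did not pass without WT e, f or g or without UtyGT d, and without UtyGT e or UtyGT f the lower genes of the list numbered 4 and 3.

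Of 23 genes for proteins that modify or bind FOXO factors, 1 rose and 5 fell. Sirt1, a deacetylase of FOXO factors, fell by 0.56 on the log2 scale (limma adjusted p = 0.00121), and the acetyltransferase genes Ep300 fell by 0.35 (limma adjusted p = 0.00666) and Crebbp fell by 0.32 (limma adjusted p = 0.0155). Xpo1, the nuclear export receptor, fell by 0.29 (limma adjusted p = 0.0271), and Prmt1, an arginine methyltransferase, rose by 0.33 (limma adjusted p = 0.047). Enzymes that add and that remove acetyl groups were thus both lower. The list held 2 lower genes without WT e or without UtyGT d, 1 without WT f and 3 without WT g.

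Among 26 tested genes described as FOXO targets, 2 rose and 9 fell (34.6%), with a median log2 fold change of -0.17. The 4 with the smallest adjusted p were the transcriptional repressor gene Bcl6, from 2811 ± 99.5 to 1833 ± 110 normalized counts (SD, n = 3; log2 fold change -0.62, limma adjusted p = 0.00033), Pdk4, from 42481 ± 5904 to 23670 ± 3126 (-0.84, 0.00111), Ccng2, from 611 ± 41.3 to 383 ± 33.6 (-0.67, 0.00141), and Slc40a1, from 723 ± 37.8 to 488 ± 65.9 (-0.57, 0.00545). Pdk4 encodes the kinase that turns off pyruvate dehydrogenase, Ccng2 an atypical cyclin linked to exit from the cell cycle, and Slc40a1 the iron exporter ferroportin. The kinase gene Plk2 and the cyclin gene Ccnd1 rose by 0.62 (limma adjusted p = 0.00208) and 0.45 (limma adjusted p = 0.011). The lower targets numbered 5 without WT e and 6 without WT f or without UtyGT d. Many of these genes also respond to other regulators, and the list was written with earlier results of these data known. The activity of FOXO factors was not measured.

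Of 21 other ubiquitin ligases of muscle, 3 rose and 3 fell. Asb2, a substrate receptor of a cullin ligase, rose by 0.49 on the log2 scale (limma adjusted p = 0.00494), Rnf207, a heart RING-finger gene, by 0.41 (limma adjusted p = 0.0112), and the mitochondrial ligase gene Mul1 by 0.43 (limma adjusted p = 0.0113). The ligase gene Huwe1 fell by 0.32 (limma adjusted p = 0.0112), Ube4b fell by 0.28 (limma adjusted p = 0.0131) and Cblb fell by 0.34 (limma adjusted p = 0.0368). Without WT e this list had 1 higher and 0 lower genes, and without WT f 2 and 0. Of the 6 tested core genes of the SCF complex, in which Fbxo32 works, 0 passed in limma, edgeR or DESeq2, with a median log2 fold change of -0.12. At an unadjusted p under 0.05 in limma, 0 were higher and 3 lower, a level that at least 3463 of all 13867 tested genes reached. Of 16 genes whose proteins are described as bound or ubiquitinated by the ligases, Ppara rose by 0.41 (limma adjusted p = 0.0131) and Fhl2 by 0.29 (limma adjusted p = 0.0422), whereas Srf, the serum response factor, fell by 0.35 (limma adjusted p = 0.0105) and Ppp3ca, the calcineurin subunit that Fbxo32 is known to target, fell by 0.32 (limma adjusted p = 0.0107). Without WT e that list had 1 higher and 0 lower genes, without WT f 0 and 1, without UtyGT d 1 and 0, and without UtyGT e 1 and 4.

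**Figure D5:**
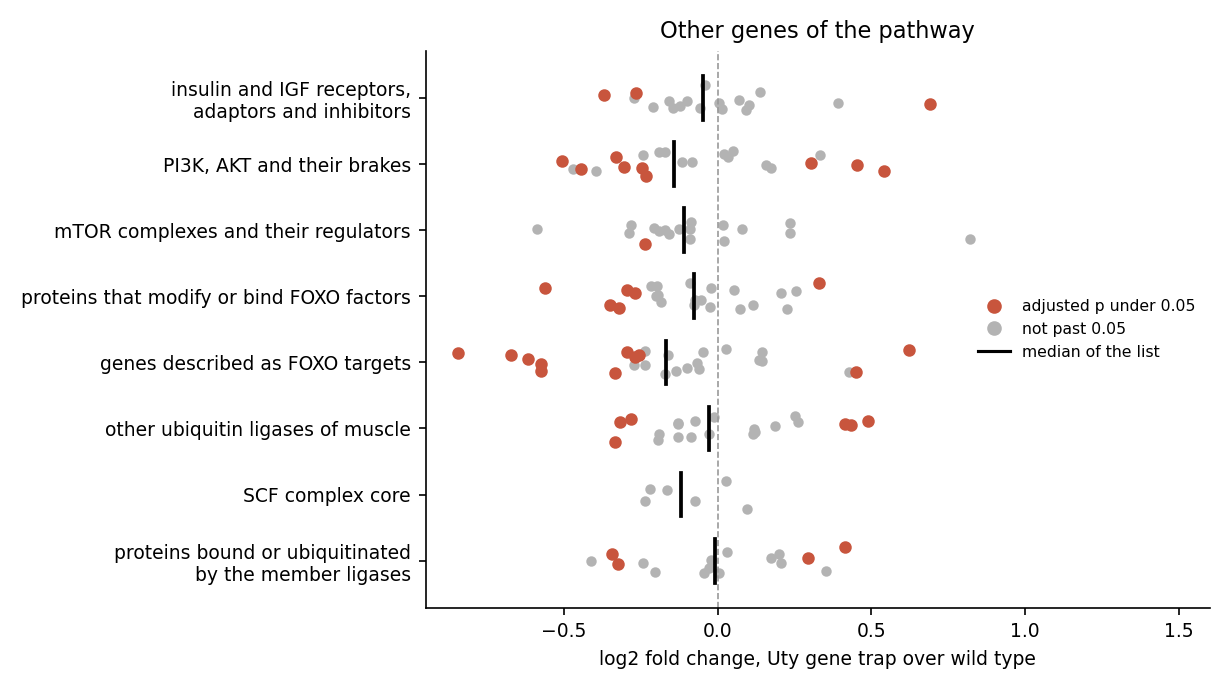
Each point is 1 tested gene of a pathway list, placed by its log2 fold change (UtyGT over WT), red where the limma adjusted p was under 0.05, with a black bar at the median of the list. The FOXO target list has its median at -0.17 and Pdk4 at -0.84 as its lowest point, and the list of other ligases has 3 red points on each side of 0.

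Across the 6 libraries, the tested genes whose log2 values followed Irs2 most closely were Dusp5, a phosphatase of ERK kinases (Pearson r = 0.998), Arpc5l (r = 0.998) and Gm24265 (r = 0.996). Those closest to Foxo1 were Cdr2l (r = 0.999), Fgfr1, a fibroblast growth factor receptor (r = 0.995), and Arf6 (r = 0.992). Fbxo32 was followed most closely by Gskip (r = 0.999), Gm12070 (r = 0.996) and Atp8a2 (r = 0.995). These 6 points share the difference between the 2 groups, and 158, 84 and 188 tested genes had an r over 0.95 with Irs2, Foxo1 and Fbxo32, respectively.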

How the data were processed

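RNA was measured in 6 libraries of plated adult cardiomyocytes, 3 per strain, grouped by their labels. After DNase treatment and ribosomal RNA depletion, stranded libraries gave single-end reads of 50 bases, per the labels and methods. The authors used CASAVA 1.4, STAR 2.5.1b on GRCm38 and featureCounts 1.6.0, and the deposited signal values are their read counts per gene divided by a DESeq2 1.22.2 size factor. How strand and multi-mapping reads were handled was not stated. Division by the step of each library gave whole reads for 100% of values (tolerance 0.001). The deposited table also holds the authors' own comparison (mean, log2 fold change, standard error, Wald statistic, p and adjusted p), which was not used. The 123 rows without a gene name (0.00343% of reads) were left out.

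Genes with a mean of at least 10 were tested with limma 3.58.1 (variance trend, R 4.3.3) on log2(normalized count + 1), with Benjamini-Hochberg adjustment over all tested genes, a threshold of 0.05 and two-sided tests. Fold changes are on this scale and are slightly understated for low genes. Without molecular identifiers, reads are not counts of molecules, and p-values measure the spread between libraries. edgeR 4.0.16 and DESeq2 1.42.0 were run on whole reads, and other alternatives were a pseudocount of 0.5 or 8, a filter at a mean of 1 or 50 or no filter, 3 other scalings, other moderation, a replicate block, a threshold of 0.01 and leaving out each library. Fits with UtyGT e or d alone were added after the data had been seen. With 1 library in a group, its spread is assumed to equal that of WT, so only log2 fold changes are given for these fits. Scripts were tested on simulated data. The text names all 10 genes, Uty, of each pathway list up to 4 genes per direction with the smallest adjusted p (some of these are not reported here), and for genes that passed the 3 genes with the highest r. Ddx3y and Eif2s3y are named as neighbours of Uty. The genes, lists and rules were chosen with earlier results of these data known. Coordinates and exon lengths are from GENCODE M21 (GRCm38), promoters from RefSeq (GRCm38.p6).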

Additional observations from a re-analysis of the deposited data

How the results depend on the processing

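Each of the 10 genes was refitted under 19 other settings. Of these 190 values, 174 kept their direction and side of the threshold, 12 kept their direction and were no longer past it, and 4 turned sign without being past it in either fit, all of them of Trim63. No called value reversed. Without a variance trend 0 of the 10 genes were higher and 0 lower (0 and 2 of the pathway genes, 76 and 70 of all tested genes), and the cause was not tested. The 2 lower genes became 1 with scaling to reads outside the mitochondrial genome, 1 with quantile normalization and 0 at a threshold of 0.01. That threshold left 3 higher and 9 lower pathway genes and 137 higher and 229 lower genes of all tested. No filter on low values gave 1004 higher genes in place of 632.

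Leaving out each library in turn gave 1 higher gene of the 10 throughout and 0 to 2 lower. Pathway genes ranged from 5 to 12 higher and from 9 to 39 lower, and all tested genes from 164 to 1000 higher and from 232 to 1230 lower (164 and 244 without WT e, 196 and 232 without WT f, 280 and 372 without UtyGT d, 1000 and 1230 without UtyGT e). Against 12 higher and 28 lower pathway genes with all libraries, there were 5 and 9 without WT e, 5 and 10 without WT f, 8 and 14 without UtyGT d, and 11 and 39 without UtyGT e. WT and UtyGT share the letters e and f, but no source says that a letter marks a shared day or animal. Deviations from the group means correlated at 0.11 for the e libraries and at 0.15 for the f libraries. All other pairings of a WT with a UtyGT library were lower, at -0.153 to 0.0816. With a replicate block of shared letters, 1 of the 10 genes was lower in place of 2, since Fbxo32 had a log2 fold change of -0.26 and a limma adjusted p of 0.056. Groups of 3 libraries limit all of these calls.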
